A study of Rattus norvegicus with 7 samples.

Results

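Chemokine transcripts were examined in primary mesenchymal stem cells from rat bone marrow (rMSCs) that had been kept for 4 h on 3 surfaces. The surfaces were a film of ISB-P, which is a polycaprolactone-based polyurethane that contains propoxylated isosorbide, a film of polycaprolactone (PCL), and TCP, the culture plastic without a film. All cells were untreated and received the same serum-containing growth medium, and each film was represented by 3 libraries and TCP by 1, 7 in all. The study's methods describe marrow taken from a male Sprague-Dawley rat, in the singular, and do not say whether the replicates were separate cultures, so the p-values measure only the spread between these libraries, which may be technical. The 10 genes Ccl2, Ccl7, Ccl12, Ccl20, Cxcl1, Cxcl2, Cxcl10, Cxcl12, Cxcl16 and Cx3cl1 were taken by symbol from 17147 listed genes. They were selected from values of these same libraries, with the high level of Ccl12 on TCP as the stated reason, so the TCP levels are described and not tested. Another 26 rows carry a chemokine symbol.

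Chemokines are small secreted proteins that form gradients and guide cells through G protein-coupled receptors. The CC and CXC families are named for the spacing of the first cysteines of the mature protein, and Cx3cl1 and Cxcl16 differ from the others in being made as membrane-anchored proteins that proteases can release. In bone marrow, Cxcl12 from mesenchymal cells retains haematopoietic stem cells, and Ccl2 draws monocytes. Many of the other members are induced by inflammatory signals through NF-κB, and Cxcl10 is also a classical interferon target.

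The values were read as FPKM, a unit inferred from the processing tool named by the submitters and from the values themselves, since the tables do not name it. In FPKM, fragment numbers are divided by transcript length and library size, so that levels can be compared between genes. They summed to 539393 on TCP and to between 542921 and 660124 on the films. The read depth is unknown, and no counting error or detection limit is given. The mesenchymal markers Thy1, Cd44 and Col1a1 were abundant in every library (925 FPKM or more for Thy1), whereas Col1a2, also on that marker list, was listed at 0 in all 7 libraries. Of 7 endothelial markers, none reached 1 FPKM in any library. In bulk RNA, fewer cells of a type and less RNA per cell cannot be told apart.

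The promoters of 9 of the 10 genes were found by symbol in RefSeq's GRCr8 sequence table. The 250 bases before each start were searched on both strands. Ccl2 had no entry there, so its promoter was not searched. The authors' values were made on another rat build, rn5, and no coordinate was converted. The NF-κB consensus was present in Cxcl1, Cxcl2, Cxcl10 and Ccl20, and in 3.54% of all 33469 promoters of the table. The interferon-stimulated response element, spelled GAAANNGAAA, was found in Cxcl10 among the members and in 3.41% of all promoters. The AP-1 site TGANTCA was found in Ccl7 and Cxcl10 and in 6.34% of all promoters, and TATAAA in Ccl7, Ccl12, Cxcl10 and Cx3cl1 and in 12.9%. These matches describe the sequence and are not sites of measured binding. The stretches below end at the base before the start and are shown because Cxcl1 and Cxcl2, which are neighbours, and Ccl7 and Ccl12, which lie in one cluster, differed in how TCP compared with the films, and because Cxcl10 holds every motif searched. Capitals mark the motif matches.
Cxcl1, chr14:17479322-17479431, minus strand, 2 overlapping NF-κB matches 84 to 74 bases before the start: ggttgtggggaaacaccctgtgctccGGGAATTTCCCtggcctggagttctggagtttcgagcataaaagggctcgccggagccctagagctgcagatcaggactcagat
Cxcl2, chr14:17467256-17467365, minus strand, 2 overlapping NF-κB matches 74 to 64 bases before the start: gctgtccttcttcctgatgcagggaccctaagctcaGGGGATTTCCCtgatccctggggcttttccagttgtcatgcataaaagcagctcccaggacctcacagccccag
Ccl7, chr10:67513985-67514094, plus strand, AP-1 at 73 and TATAAA at 34 bases before the start: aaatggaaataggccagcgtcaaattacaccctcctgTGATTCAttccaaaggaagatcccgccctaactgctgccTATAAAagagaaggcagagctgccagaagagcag
Ccl12, chr10:67567766-67567875, plus strand, TATAAA at 41 bases before the start: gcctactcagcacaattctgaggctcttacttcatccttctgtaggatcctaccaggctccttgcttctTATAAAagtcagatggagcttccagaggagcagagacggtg
Cxcl10, chr14:15988816-15989065, plus strand, the interferon element at 243, NF-κB at 187, TATAAA at 162 and AP-1 at 96 bases before the start: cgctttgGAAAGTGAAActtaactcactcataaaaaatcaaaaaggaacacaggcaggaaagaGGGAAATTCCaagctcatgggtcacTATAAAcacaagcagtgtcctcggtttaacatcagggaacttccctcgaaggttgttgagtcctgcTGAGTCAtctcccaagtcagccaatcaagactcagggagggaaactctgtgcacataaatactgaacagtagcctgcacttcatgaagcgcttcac

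Expression of the 10 chemokines spanned about 3 orders of magnitude on the films. Ccl2, the monocyte attractant, was the most abundant, with a mean on ISB-P of 1266 ± 326 FPKM (SD, n = 3, as for all film means) and one on PCL of 1208 ± 232. Cxcl12 followed at 417 ± 85.5 on ISB-P and 401 ± 57.6 on PCL. These genes together made up 84.1% to 88.1% of the summed FPKM of the 10 members on the films and 76.4% on TCP. Ccl7, which encodes another monocyte attractant, came next at 209 ± 71.7 on ISB-P and 140.4 ± 30.1 on PCL, followed by Cxcl1, Cxcl16 and Cxcl10 in the same order on both films. Cxcl2, Cx3cl1 and Ccl12 overlapped one another on PCL, and on ISB-P their libraries did not overlap, in the order Cxcl2, Ccl12 and Cx3cl1. Ccl20, which attracts cells that carry Ccr6, was near 1 FPKM on both films (0.941 ± 0.573 on ISB-P and 0.964 ± 0.522 on PCL), and on ISB-P its highest library was level with the lowest of Cx3cl1. All other neighbours in this order were separated on both films. The summed level of the members was 0.249% to 0.377% of all FPKM, and the TCP library was at the low end of this range.

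**Figure D1:**
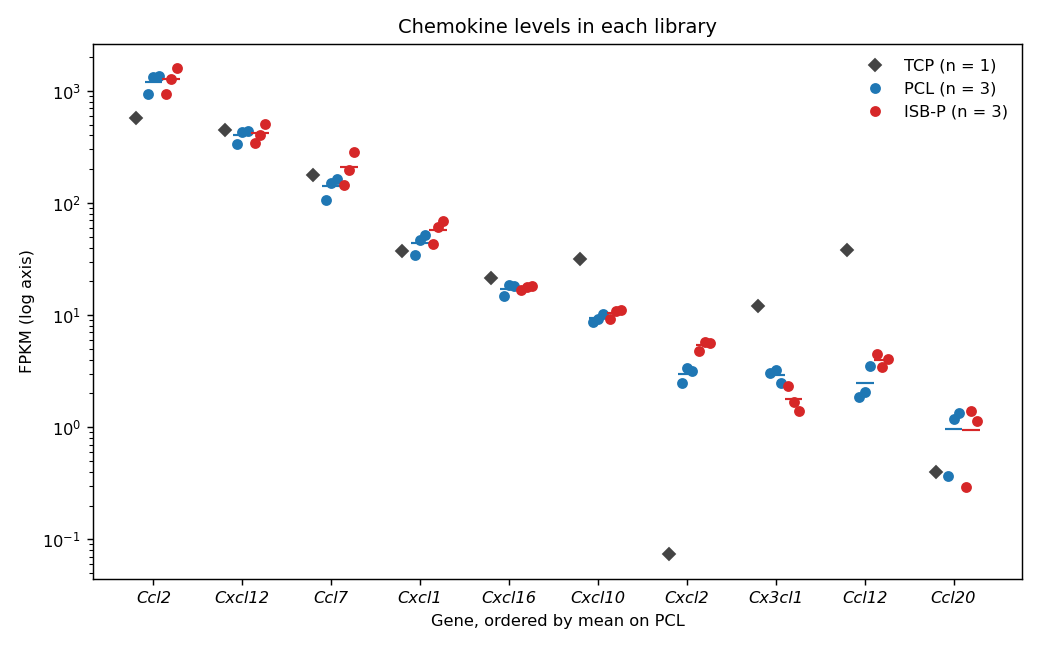
FPKM of the 10 chemokines (log axis) in each library, with diamonds for the TCP library, circles for the 3 PCL and 3 ISB-P libraries and short lines for the film means. Ccl12, Cxcl10, Cx3cl1 and, by a small margin, Cxcl16 lay above every film library on TCP. Ccl2 and Cxcl2 lay below every film library there, Cxcl2 at 0.0733 FPKM, and the films lay close together for most genes.

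The comparison of ISB-P with PCL asked whether chemokine expression differed between the films. The PCL film lacks the urethane groups of the copolymer as well as the isosorbide, so the comparison isolates neither. All 10 members were among the 9467 genes tested, each with at least 1 FPKM in at least 3 film libraries. None passed an adjusted p under 0.05 in limma on log2(FPKM + 1), where 1.10% of all tested genes were called higher on ISB-P and 0.623% lower. At an unadjusted p under 0.05, 3 of the 10 members and 1145 of all tested genes passed. The labels state no pairing of the films, but one by replicate number was inferred from these same data. With the number as a block Cxcl2, Ccl12, Ccl7 and Cxcl1 were called higher on ISB-P and Cx3cl1 lower. These 4 and 1 of 10 members stand beside 13.0% of all tested genes called higher and 11.4% called lower in that fit. The median log2 fold change was 0.09 over the members and 0.02 over all tested genes.

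Cxcl2, a neutrophil attractant, had 2.46, 3.34 and 3.18 FPKM in replicates 1, 2 and 3 of PCL, against 4.75, 5.73 and 5.67 for ISB-P. Every ISB-P library lay above every PCL library. The log2 fold change was 0.68 (standard error 0.14, 95% interval 0.36 to 1.00), with an adjusted p of 0.0741 in limma and 0.00104 with the replicate block. The difference within replicates was even, at 0.73, 0.63 and 0.68. Cxcl2 was the only member that separated the films with ISB-P higher, a pattern shown by 8.17% of all tested genes. Its 2-sided exact permutation p was 0.1, the smallest that 3 against 3 libraries allow.

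Cx3cl1, or fractalkine, which tethers and attracts cells that carry Cx3cr1, was 2.34, 1.68 and 1.39 FPKM on ISB-P and 3.03, 3.26 and 2.46 on PCL in replicates 1, 2 and 3. Every ISB-P library lay below every PCL library, a separation that 9.54% of all tested genes showed in this direction and no other member did. The log2 fold change was -0.49 (standard error 0.16, 95% interval -0.87 to -0.12), with an adjusted p of 0.245 in limma and 0.0118 with the replicate block.

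Ccl7 and Ccl12 lie in the same cluster of CC genes as Ccl2. For Ccl7, PCL gave 106, 151 and 164 FPKM in replicates 1, 2 and 3, and ISB-P gave 143, 198 and 285. The films overlapped, but ISB-P was higher within each replicate number, by 0.43, 0.38 and 0.80 on the log2 scale. The log2 fold change of 0.54 (standard error 0.28) had an adjusted p of 0.562 in limma and 0.00366 with the block. Ccl12, also a monocyte attractant in rodents, was 4.50, 3.43 and 4.06 FPKM on ISB-P and 1.88, 2.07 and 3.48 on PCL, and here too the films overlapped, by a narrow margin. Its log2 fold change of 0.55 (standard error 0.19) had an adjusted p of 0.300 in limma and 0.0216 with the block, and its difference within replicates 1, 2 and 3 was uneven, at 0.94, 0.53 and 0.17.

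Cxcl1, the neighbour of Cxcl2 and likewise a neutrophil attractant, was 43.0, 60.4 and 68.7 FPKM on ISB-P and 34.1, 47.0 and 51.6 on PCL. The lowest library of each film was replicate 1, and the films overlapped. Within replicates the log2 difference was 0.33, 0.36 and 0.41, and the log2 fold change of 0.36 (standard error 0.23) had an adjusted p of 0.680 in limma and 0.00660 with the block.

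The other 5 members were called in neither fit. Ccl2 was 936, 1275 and 1587 FPKM on ISB-P and 942, 1320.4 and 1362 on PCL, with replicate 1 lowest on both films. Its log2 fold change was 0.05, with a 95% interval from -0.50 to 0.60 without the block and from -0.11 to 0.21 with it. Cxcl12 was 340, 403 and 509 FPKM on ISB-P and 335, 432 and 436 on PCL, and its interval with the block ran from -0.12 to 0.22. Cxcl10, a ligand of Cxcr3, ranged from 9.14 to 11.1 FPKM on ISB-P and from 8.59 to 10.2 on PCL (log2 fold change 0.14, interval with the block -0.05 to 0.32). Cxcl16, the ligand of Cxcr6, ranged from 16.8 to 18.3 FPKM on ISB-P and from 14.9 to 18.6 on PCL (interval with the block -0.15 to 0.22). Ccl20 had the widest interval relative to its level, from -0.72 to 0.66 without the block. The sign of the log2 fold change depended on the scaling of the libraries for Ccl2, Cxcl12 and Cxcl16.

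**Figure D2:**
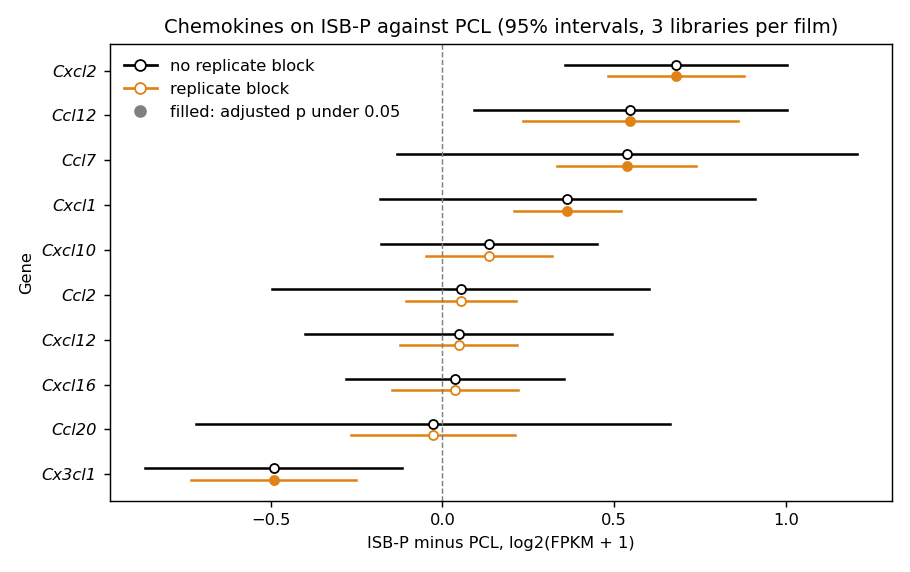
Difference between ISB-P and PCL on log2(FPKM + 1) for each chemokine, with 95% intervals from limma without the replicate block (black) and with it (orange), 3 libraries per film. Filled points had an adjusted p under 0.05: no black point is filled, and the orange points of Cxcl2, Ccl12, Ccl7, Cxcl1 and Cx3cl1 are.

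Ratios between related genes within a library are unchanged by a single scaling factor per library, but not by quantile normalization. The pairs were chosen after the values were seen, so the ratios are given without a test. Ccl7 was 15.3%, 15.5% and 18.0% of the Ccl2 level in ISB-P replicates 1, 2 and 3 and 11.3%, 11.4% and 12.0% in those of PCL, so that the films did not overlap although both genes varied between replicates. On TCP it was 30.7%. Cxcl2 was 11.0%, 9.48% and 8.25% of the Cxcl1 level on ISB-P, 7.21%, 7.11% and 6.16% on PCL and 0.198% on TCP. Cxcl3, another gene of the Cxcl1 group and not one of the 10 members, was 24.2% to 27.2% of Cxcl1 on ISB-P and 8.75% to 14.7% on PCL, and 18.5% on TCP. Related genes of this kind resemble each other in sequence, and it is not known how reads matching more than one of them were counted.

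**Figure D3:**
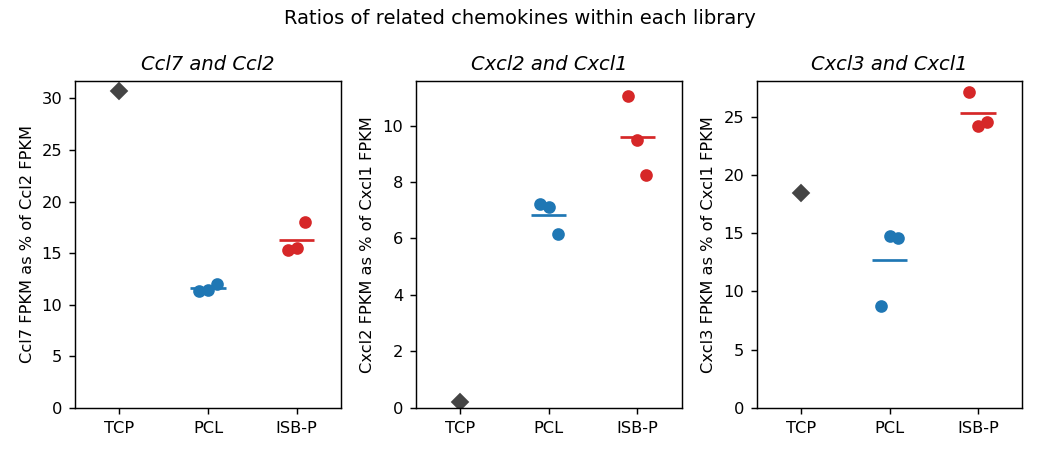
FPKM of Ccl7 as a percentage of Ccl2, and of Cxcl2 and Cxcl3 as percentages of Cxcl1, within each library, with diamonds for TCP, circles for the films and lines for film means. In all 3 panels every ISB-P library lies above every PCL library, and TCP is highest for Ccl7 (30.7%) and lowest for Cxcl2 (0.198%).

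The TCP library was set against the films to see how chemokine expression on either polymer compares with that on culture plastic. With 1 TCP library there is no replicate check, and both film comparisons share it. Ccl12 was 37.8 FPKM on TCP and between 1.88 and 4.50 in the 6 film libraries. On the scale with 1 FPKM added, TCP was 11.2-fold above the PCL mean and 7.77-fold above the ISB-P mean. Ccl12 was the fourth most abundant member on TCP, against the ninth on PCL and the eighth on ISB-P. To name genes with a like pattern, the 4571 genes with at least 16 FPKM on TCP were ordered by the ratio of TCP to the highest film library, with 1 FPKM added to each. Ccl12 was at 7.06-fold, and its place near the top follows from its having been chosen for this difference. Car3, a carbonic anhydrase, was at 16.1-fold, Tm7sf2, an enzyme of cholesterol synthesis, at 8.97-fold, Cyp26b1, which degrades retinoic acid, at 4.91-fold, and MGC112715 at 4.60-fold.

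The folds that follow are also on the scale with 1 FPKM added. Cxcl10 was 31.5 FPKM on TCP, 3.14-fold above the PCL mean and 2.85-fold above the ISB-P mean, and its highest film library was at 11.1. Cx3cl1 was 12.0 FPKM on TCP, 3.33-fold above PCL and 4.66-fold above ISB-P. Cxcl16 was also above all films on TCP, at 21.6 FPKM, but by 1.24-fold and 1.21-fold only. Cxcl2 went the other way, at 0.0733 FPKM on TCP, where its neighbour Cxcl1, at 36.9 FPKM, lay within the film range. The means of Cxcl2 on PCL and ISB-P were 3.72-fold and 5.95-fold above TCP on the same scale. The added 1 FPKM shrinks the ratios of low values, those of Ccl12 and Cx3cl1 as well. The low TCP value of Cxcl2 rests on 1 library of unknown depth, so the size of its change is uncertain. Ccl2 was 575 FPKM on TCP, with the film means 2.10-fold (PCL) and 2.20-fold (ISB-P) higher. The difference was under 2-fold from PCL, ISB-P or both when the libraries were rescaled by upper quartile, by quantiles or to a common total, or when replicate 3 of either film was left out, which leaves 1 member, Cxcl2, over 2-fold below both.

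Thus 3 members were over 2-fold above both film means on TCP and 2 were over 2-fold below both, beside 2.29% and 5.09% of all tested genes. TCP lay above all 6 film libraries for 4 members and below all 6 for 2, beside 25.4% and 29.7% of all tested genes. As Ccl12 on TCP was part of the choice of members, nothing is read from these counts. The levels of Ccl7 (177 FPKM), Cxcl12 (451) and Ccl20 (0.395) on TCP lay within the range of the films.

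Markers of other cells differed between TCP and the films as well. Of 16 leukocyte and macrophage markers, all of them measured, 14 were higher on TCP than in every film library, and 5 stayed under 1 FPKM in every library. The count of 14 includes untested markers, and no share over all listed genes stands beside it. All 7 tested markers were higher on TCP than in every film library, beside 25.4% of all tested genes. The summed level of the 16 markers was 166 FPKM on TCP, 51.4 to 61.2 on PCL and 52.5 to 59.7 on ISB-P. Among examples chosen after their values were seen, Lyz2, the lysozyme of myeloid cells, was 72.9 FPKM on TCP and between 16.6 and 27.2 on the films, and Cd14, a receptor for lipopolysaccharide, was 31.7 on TCP and between 10.9 and 16.6. Ptprc, the pan-leukocyte antigen, was 1.48 FPKM on TCP and between 0.433 and 1.23 on the films, and the macrophage receptor Cd163 was listed at 0 in all 7 libraries. The part of these cells in the TCP levels of Ccl12, Cxcl10 and Cx3cl1 was not tested. No leukocyte marker was called between the films, and with the replicate block Lyz2 was called higher and Cd14 lower on ISB-P (adjusted p = 0.0299 and 0.00663 in limma). The fit with the block called 13.0% of all tested genes higher and 11.4% lower.

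Interferon-induced genes were also higher on TCP. Of the 16 tested genes of a list of 20, 13 lay above all film libraries on TCP and 7 were over 2-fold above both film means. These counts stand beside 25.4% and 2.29% of all tested genes. The median log2 difference was 0.88 from PCL and 0.83 from ISB-P, beside -0.07 and -0.08 over all tested genes. Isg15, a ubiquitin-like interferon target, was 30.2 FPKM on TCP and between 5.36 and 8.59 on the films, and Irf7, a transcription factor of the interferon response, was 23.2 on TCP and between 5.99 and 9.32. These examples were chosen after their values were seen. Between the films none of the 16 was called, and with the block the genes called included Ifit3 and Rsad2, higher on ISB-P, and Irf1 and Usp18, lower. Among all tested genes, 13.0% were called higher and 11.4% lower with the block. Irf1, an activator of interferon genes, was 15.2, 15.0 and 15.6 FPKM on ISB-P and 24.2, 22.6 and 24.4 on PCL, with an adjusted p of 0.0579 in limma and 8.49e-04 with the block. Usp18, which restrains interferon signalling, was 5.21, 7.18 and 10.1 on ISB-P and 11.5, 11.4 and 14.9 on PCL (adjusted p = 0.250 in limma and 0.00224 with the block).

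**Figure D4:**
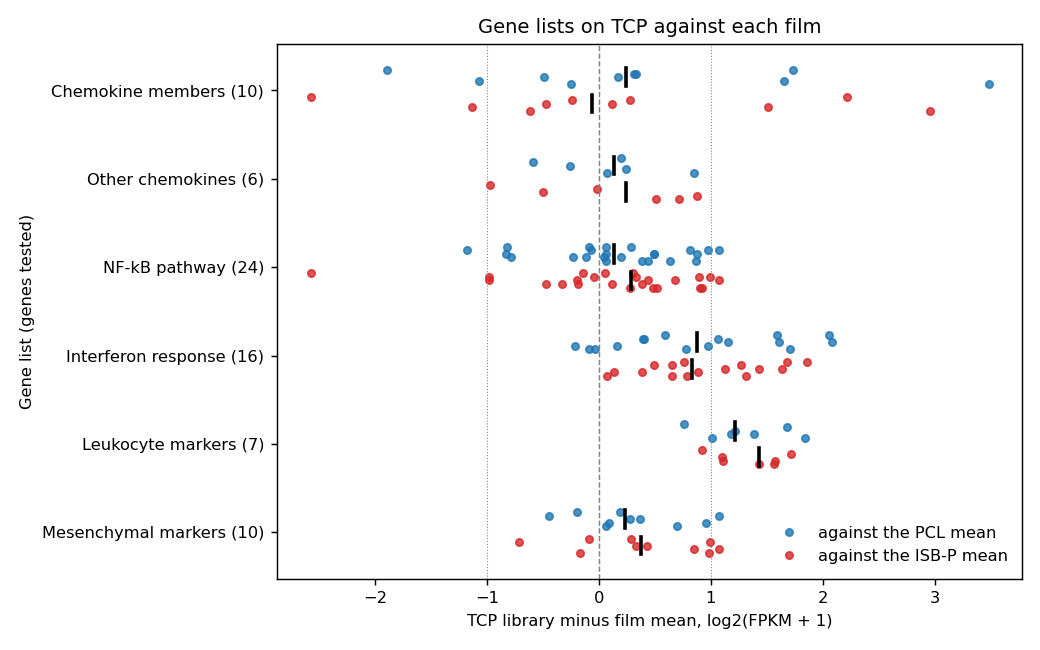
Difference of the TCP library from the mean of PCL (blue) and of ISB-P (red) on log2(FPKM + 1), with 1 point per tested gene of each list, black bars for medians and dotted lines at a 2-fold difference. All 7 tested leukocyte markers lie to the right of 0, the interferon genes have medians of 0.88 and 0.83, and the chemokines spread from Cxcl2 at -2.57 to Ccl12 at 3.48.

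Of the 26 other chemokine rows, 15 stayed under 1 FPKM in every library, 3 of them listed at 0 throughout, and 6 could be tested between the films. None was called, and with the block Ccl3 and Cxcl3 were called higher and Ccl4, Cxcl14 and Pf4 lower on ISB-P. The shares of all tested genes in that fit were 13.0% higher and 11.4% lower. Cxcl3 was 11.7, 14.6 and 16.9 FPKM on ISB-P and 2.99, 6.92 and 7.54 on PCL (log2 fold change 1.24, adjusted p = 0.136 in limma and 3.70e-04 with the block), and its films did not overlap. The macrophage inflammatory proteins Ccl3 and Ccl4 differed in opposite directions. Ccl3 ranged from 16.9 to 19.4 FPKM on ISB-P and from 12.8 to 16.7 on PCL, and Ccl4 was 6.57, 13.4 and 9.33 on ISB-P and 9.78, 19.8 and 17.7 on PCL. Cxcl14 ranged from 4.62 to 6.81 FPKM on ISB-P and from 8.80 to 10.1 on PCL, and Pf4, platelet factor 4, from 2.81 to 5.93 and from 6.94 to 9.09. Cxcl13, which attracts B cells, reached 6.03 FPKM on ISB-P and 4.45 on PCL and was called in neither fit.

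On TCP, 1 of the 6 tested other chemokines, Ccl3, lay above every film library, beside 25.4% of all tested genes. Over all 26 rows, of which 15 stayed under 1 FPKM in every library, 10 did so. This count includes untested rows, and no share over all listed genes stands beside it, so nothing is read from it. Of the 10, 5 were too low on the films to be tested but reached at least 1 FPKM in a library. Ccl9 did so on TCP only, so that its position above the films is built into this choice. Xcl1, Ccl5, Cxcl11 and Cxcl5 also passed 1 FPKM in a film library. As all 5 are low on the films, their values are given as a description. Xcl1, or lymphotactin, was 9.12 FPKM on TCP and at most 1.05 on the films. Ccl5, an attractant of T cells, was 4.53 FPKM on TCP and at most 1.88 on the films. Cxcl11, the neighbour of Cxcl10 and a ligand of the same receptor, was 4.31 FPKM on TCP and at most 1.62 on the films. Cxcl5 was 3.37 and Ccl9 1.64 on TCP, with film maxima of 1.42 and 0.885. Ccl11, which lies between Ccl7 and Ccl12 in the gene order of GRCr8, was at 0.0614 FPKM on TCP and listed at 0 on the films.

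Of 23 receptor genes on the list, 19 were measured, and Ccr2, the receptor of Ccl2, Ccl7 and Ccl12, was not analysed here. Of the 19, 16 stayed under 1 FPKM in every library, and 3 of these (Ccr4, Ccr6 and Xcr1) were listed at 0 in all 7, which without read counts does not show that they were not expressed. The genes under 1 FPKM included Cxcr4, the receptor of Cxcl12, which reached 0.749, and also Cxcr2, a receptor of Cxcl1 and Cxcl2, which reached 0.0531. Ccr1, a receptor for Ccl3, Ccl5 and Ccl7, was the highest of the 19 on the films, at 4.43, 6.19 and 9.31 FPKM on ISB-P and 2.28, 2.99 and 3.85 on PCL, without overlap. Its log2 fold change of 0.89 (standard error 0.26) had an adjusted p of 0.194 in limma and 5.07e-04 with the block. Ccrl2, a decoy-like receptor, ranged from 0.599 to 1.78 FPKM on the films and was called in neither fit. Ackr3, the scavenger receptor of Cxcl12, listed as Cxcr7, was 3.60 FPKM on TCP and between 0.827 and 1.53 on the films and was not tested between them. Among 6 genes that release or trim chemokines, none was called between the films without the block. Adam10 and Adam17, the proteases that shed Cx3cl1 and Cxcl16, here picked for that role, had log2 fold changes of -0.02 and -0.01, and Furin, a convertase with the largest difference of the 5 tested, -0.27, passed with the block only (adjusted p = 0.0300 in limma). Mmp2, which can trim Ccl7 and Cxcl12, had a log2 fold change of -0.03 between the films and was 543 FPKM on TCP against at most 299 on the films. Furin was also above all films on TCP, at 83.7 FPKM, whereas Adam10 (17.4), Adam17 (31.1) and Mmp9 (16.4) were below all films, so that 3 of the 5 tested genes lay below and 2 above, with a median log2 difference of -0.35 from either film. TCP lay below all films for 29.7% of all tested genes and above all films for 25.4%.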

How the data were processed

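Strand-specific libraries of polyadenylated RNA were read as paired ends by the authors. Each library has its own table, deposited by the authors, of values by gene symbol, which were taken as FPKM from the named tool and their range. The submitters' processing notes name bcl2fastq 2.20.0.422, cutadapt 1.18, TopHat2 2.0.13, Cuffdiff 2.2.1 and the build rn5, without roles, and the study names ExDEGA. The annotation is not given in the sources used here. FPKM depend on library scaling and on how shared reads were assigned.

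The 3 ISB-P and 3 PCL libraries were compared with limma 3.58.1 in R 4.3.3 (eBayes with a mean-variance trend, two-sided) on log2(FPKM + 1), with Benjamini-Hochberg adjustment over 9467 genes. The fit without the block was tried on simulated data, drawn independently for each library. That simulation held no deviations shared by replicate number, so it does not check either fit where these are present. TCP entered no test. Replicate numbers come from the labels, which state no pairing. Deviations from the film mean correlated across genes at 0.887, 0.431 and 0.867 for same-numbered libraries 1, 2 and 3. For libraries of other numbers the correlations ran from -0.836 to 0.177. Deviations from a mean of 3 libraries cancel out within each film. Negative correlations at other numbers therefore follow in part from positive ones at the same number. The pairing used for the block was thus inferred from these same data. Genes named were the 10 members, other chemokines and receptors with at least 1 FPKM in a library, from each other list the calls or else the 2 largest differences, and the 5 genes most specific to TCP. Members and lists were chosen with earlier results of these data known. Alternatives were another pseudocount, no filter, 3 scalings, the replicate block, TCP in the fit, the study's thresholds and each replicate left out. Python 3.11.15 and matplotlib 3.10.9 were used for summaries and plots. The result of 1 gene of the interferon list is not reported here.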

Additional observations from a re-analysis of the deposited data

How the results depend on the processing

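No member was called between the films under any alternative but the replicate block (4 higher and 1 lower) and quantile normalization, which added Cxcl2 as 1 gene higher (adjusted p = 0.0461 in limma). Over all tested genes, ISB-P was called higher for 104 and lower for 59. The block gave 1228 and 1079, the study's thresholds 58 and 7, and upper quartile scaling 39 lower. Those thresholds were taken as an unadjusted p under 0.1, over 2-fold and a film mean of at least 16 FPKM. They were applied to limma p-values and not to those of the study's program, so 58 and 7 are not the study's counts. Leaving out 1 library gave from 13 to 70 higher and from 2 to 30 lower, both fewest without PCL replicate 2 and most without ISB-P replicate 3, and called no member. Of the members, 4 changed sign. Ccl2 was at -0.081 after quantile normalization and -0.063 after scaling to a common total, and from -0.13 to 0.25 with a replicate left out. Cxcl12 was at -0.12 and -0.069 in the same settings and from -0.11 to 0.18 with a replicate left out. Cxcl16 was at -0.073 with a common total and from -0.059 to 0.094, and Ccl20 from -0.27 to 0.24, with a replicate left out. On TCP the number of members over 2-fold below both film means was 1 after upper quartile scaling, quantile normalization or scaling to a common total, and 1 to 2 with a replicate left out, since Ccl2 lay near the limit; it was 3, with Ccl20 added, at a pseudocount of 0.1. The 3 members over 2-fold above both film means numbered 3 in each of these alternatives. With a pseudocount of 0.1 the log2 difference of Cxcl2 on TCP was -4.16 from PCL and -4.98 from ISB-P. The unknown depth and the single TCP library limit all values under 1 FPKM.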

Other observations

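Regulators of chemokine genes were also measured. Of 24 tested genes of the NF-κB pathway, its feedback inhibitors and the cytokines around it, none was called between the films. With the replicate block Il6 and Tlr2 were called higher on ISB-P, and Nfkbie, Birc3 and Il1a lower. These 2 and 3 of 24 genes stand beside 13.0% of all tested genes called higher and 11.4% called lower in that fit, so nothing is read from the counts. Il6, an inflammatory cytokine, had 1.18, 3.04 and 2.54 FPKM in replicates 1, 2 and 3 of PCL, against 5.03, 9.90 and 15.0 for ISB-P and 0.835 on TCP, so that the films did not overlap and TCP lay below both (log2 fold change 1.69, adjusted p = 0.109 in limma and 1.15e-04 with the block). Nfkbie, an inhibitor of NF-κB, was 24.8, 19.8 and 15.4 FPKM on ISB-P, 34.6, 27.6 and 26.5 on PCL and 38.8 on TCP (adjusted p = 0.317 in limma and 0.00246 with the block). Cxcl2 and Il6 were thus both lowest on TCP and highest on ISB-P, as values of these libraries. Most of the list did not share the low TCP level of Il6. TCP lay above all film libraries for 12 of the 24 tested genes and below all of them for 4, Il6 included. Among all tested genes these shares were 25.4% and 29.7%.

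Of 4 tested genes on a list of Cxcl12 regulators, none was called without the block. Hif1a, the oxygen-sensing transcription factor, was 56.1, 81.3 and 138.8 FPKM on ISB-P and 38.9, 63.2 and 75.4 on PCL (adjusted p = 0.689 in limma and 0.00403 with the block), while Sp1 had a log2 fold change of 0.20 and was called in neither fit. On the mesenchymal list none of 10 tested genes was called. With the block the growth factor receptors Pdgfra and Pdgfrb were called lower on ISB-P, beside 11.4% of all tested genes. Pdgfrb was 109.6, 97.4 and 86.6 FPKM on ISB-P and 177, 167 and 154 on PCL (adjusted p = 0.0510 in limma and 1.41e-04 with the block).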
